A study of Homo sapiens with 24 samples.

Results

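The 10 genes described here are core parts of bone morphogenetic protein (BMP) signalling: the type I receptors ACVR1 and BMPR1A, the type II receptor BMPR2, the signal carrier SMAD1, the inhibitory SMAD6 and SMAD7, and the target genes ID1, ID2, ID3 and ID4. They were taken by symbol for their place in the pathway, by a rule that uses no measured value, although earlier results of these data were known when the set was made. Each of the 10 was found as 1 of 58676 gene identifiers in the count table. The cells were HSJD-DIPG-007, an established patient-derived diffuse midline glioma (DMG) line grown as spheroids. Their polyadenylated RNA is represented by 24 libraries, with 12 in the vehicle arm and 12 in the LLY-283 arm. LLY-283 inhibits PRMT5, an enzyme that puts symmetric methyl marks on arginines. The drug was given at the GI40, with fresh medium and a second dose of drug or vehicle after 5 days. Day 0 stands for 0 days of treatment, so a difference between the arms on that day is a baseline difference. Days 0 and 5 have 3 libraries in each arm, day 7 has 2, and days 1, 2, 3 and 10 have 1. The sample labels of days 0 to 3 form a number series apart from that of days 5, 7 and 10. What the series stand for is not stated. Changes within an arm from day 0 to day 5 therefore cannot be told apart from a difference between the series. All groups carried the same genotype, with H3F3A K27M, ACVR1 R206H and a PIK3CA change listed as MIS, so that the controls also had the changed ACVR1 receptor and no line with an unchanged ACVR1 was compared. The study calls the libraries within a group technical repeats. The p-values therefore measure the spread between such repeats of a single cell line.

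BMP ligands bring type I and type II receptors together at the cell surface, where the type II receptor phosphorylates the type I receptor. The activated type I receptor phosphorylates SMAD1, SMAD5 or SMAD9, which enter the nucleus with SMAD4 and switch on target genes, among them the ID genes and the pathway's own inhibitors SMAD6 and SMAD7. ID proteins bind E proteins such as TCF3, TCF4 and TCF12 and keep them off DNA, and in glial precursors they are known for holding back differentiation. ACVR1 mutations are recurrent in DMG, and the labelled change makes the receptor respond to activin, which does not normally signal through it to SMAD1.

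Library totals lay between 13835205 and 23190369 estimated counts. Levels are given as CPM (counts scaled to a common library size) after TMM normalization, and genes were called at an adjusted p under 0.01 in edgeR's quasi-likelihood test. Of the markers of oligodendrocyte precursor-like glioma, CSPG4 lay between 1146 and 1367 CPM and OLIG2 between 230.1 and 371.8 CPM, while SOX10 reached at most 0.603 CPM. Of the astrocyte genes, S100B lay between 237.7 and 366.2 CPM and SLC1A3 between 248.8 and 405.4 CPM, while GFAP reached at most 4.45 CPM and AQP4 was at 0 in all 24 libraries. The summed microglia and leukocyte list reached at most 1.86 CPM and the summed endothelial list at most 25.9 CPM. The summed fibroblast list was highest in vehicle day 5 repeat 3, at 377.7 CPM. Its largest medians over the 24 libraries were those of THY1 and POSTN, at 136.5 and 54.97 CPM. COL1A1, COL1A2 and FN1 had medians of at most 7.981 CPM and reached 53.84, 36.86 and 60.42 CPM. At day 5 the fibroblast sum ranged from 218.4 to 377.7 CPM in vehicle and from 299.5 to 301.3 CPM in LLY-283. Other summed lists separated by arm at day 5, from vehicle to LLY-283: the neuron list from 54.87-57.26 to 67.38-72.59 CPM, the oligodendrocyte precursor list from 2598-2672 to 2737-2814 CPM, the astrocyte list from 579-598 to 520.5-578.9 CPM and the immediate early genes, which respond to handling, from 1007-1018 to 1036-1055 CPM. Of all genes, 46.7% had groups that did not overlap at day 5. The neuron sum was mostly SYT1, with a median of 59.33 CPM over the 24 libraries, while RBFOX3, STMN2 and SNAP25 had medians of at most 1.424 CPM. The astrocyte ranges nearly touched, and of its 3 tested genes 1 was called higher and 1 lower. The immediate early list also separated at day 0, with 748.8 to 787 CPM in vehicle and 834.7 to 870.9 CPM in LLY-283, and its genes ARRDC3 and KLF6 were 2 of only 3 genes called that day. These 2 genes were put on the list with earlier results of these data known, so the day 0 separation is not an independent observation. The part of these lists in the results was not tested. In bulk RNA, fewer cells of a type and less RNA per cell cannot be told apart. The day 7 libraries labelled repeat 2 stood apart from their arms. On a scale over the genes called at day 5, on which the vehicle day 5 libraries lay between -3.1% and 3.87% and the LLY-283 day 5 libraries between 93.7% and 103%, vehicle day 7 repeat 2 lay at 47.3% and LLY-283 day 7 repeat 2 at -7.81%, against -2.57% and 73.1% for the repeat 1 libraries. The means of the day 5 groups set the ends of this scale. Day 0 libraries lay between 19.6% and 33% in vehicle and between 18.1% and 24.8% in LLY-283, so the scale also moves with the day. Day 7 values are therefore given by label and library. The test of treatment by day over days 0 to 7 is also given without both repeat 2 libraries. The choice of these libraries rests on the treatment difference itself, so leaving them out can favour calls for treatment. A fit shared by the 22 libraries of days 0 to 7 is used below as an alternative. It holds both repeat 2 libraries and was not run without them.

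The 10 genes covered a wide range of levels. Per kilobase of the MANE Select transcript, the mean level in the vehicle libraries of day 0 was 52.4 ± 2.94 CPM for ID4 (SD, n = 3) and 28.3 ± 0.34 CPM for BMPR1A. ID3 and ID2 followed at 14.1 ± 0.967 and 13.03 ± 0.812 CPM per kilobase, with libraries that overlapped. SMAD1 stood at 10.7 ± 0.136 CPM per kilobase. ACVR1 and BMPR2, at 5.00 ± 0.218 and 4.78 ± 0.258 CPM per kilobase, also overlapped. The low end was formed by SMAD7 at 3.61 ± 0.252, SMAD6 at 2.27 ± 0.0793 and ID1 at 1.52 ± 0.0663 CPM per kilobase. ID1, the ID gene most often used as a BMP readout, was thus the scarcest member per length, with between 2 and 38 counts in a library, and counting error weighs most on it.

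At day 5, LLY-283-treated cells had more ACVR1 RNA and less BMPR1A, ID1 and ID3 RNA than vehicle-treated cells. The differences were 1.29-fold up for ACVR1, and 0.773-fold, 0.328-fold and 0.639-fold of the vehicle level for BMPR1A, ID1 and ID3. BMPR2, SMAD1, SMAD6, SMAD7, ID2 and ID4 did not pass the test. The 4 of 10 members called compare with 26.1% of the 16491 genes tested. The groups did not overlap for 6 of the 10, against 46.7% of all genes, when read with TMM factors of the day 5 libraries alone. ID2 is among these 6. Its groups overlap in the CPM values given below, which use the factors of all 24 libraries. The median log2 fold change was 0.02 over the 10 members and 0.02 over all genes tested. At day 0 no member was called, against 0.0169% of 17780 genes, and 2 of the 10 had an unadjusted p under 0.05, against 5.69% of genes.

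**Figure D1:**
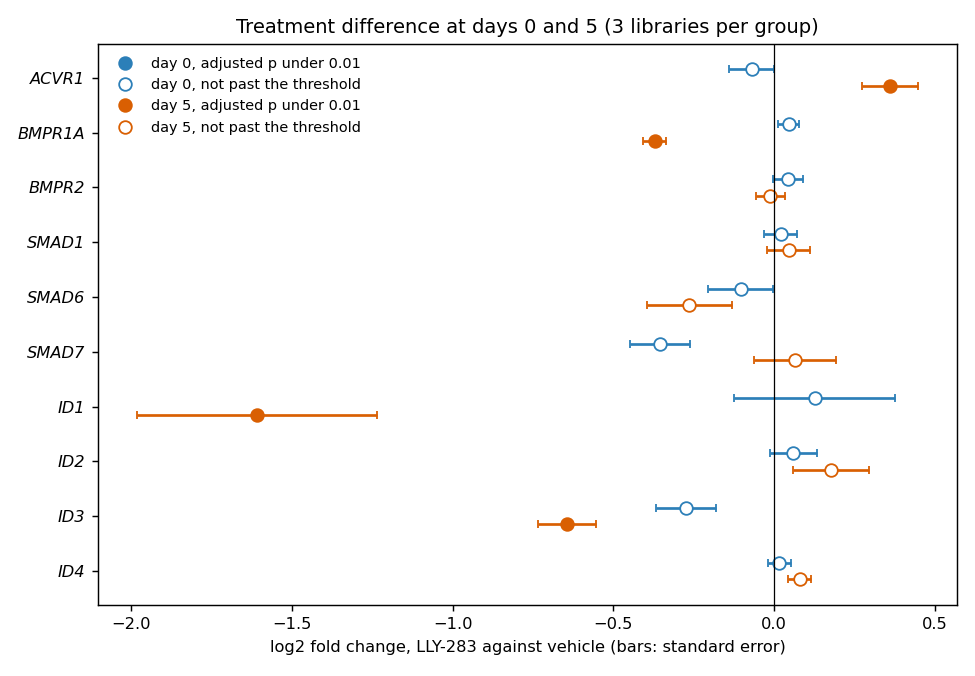
The log2 fold change of LLY-283 against vehicle is plotted for the 10 genes at day 0 (blue) and day 5 (orange), with 3 libraries per group, bars for the standard error and filled points for an adjusted p under 0.01. ACVR1 is the filled point above zero at 0.36, and ID1, ID3 and BMPR1A are the filled points below it, while every day 0 point is open.

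ACVR1, also called ALK2, is the type I receptor that carries the labelled R206H change. The reference coding sequence around codon 206 is shown because it locates that change, and it was read from the MANE Select transcript in GENCODE on GRCh38, chr2:157774092-157774136 on the minus strand, in exon 6, with codon 206 in capitals:
ACVR1: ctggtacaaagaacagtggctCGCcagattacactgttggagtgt
The counts are per gene and do not separate reads of this codon from those of the changed one, so ACVR1 values do not tell alleles apart. At day 5, ACVR1 measured 14.04, 14.85 and 13.8 CPM in the 3 vehicle libraries and 19.2, 19.0 and 15.85 CPM in the 3 LLY-283 libraries. All 3 treated libraries lay above all 3 vehicle libraries, the third by the smallest margin. The log2 fold change was 0.36 ± 0.087 (SE, n = 3 per group) with an adjusted p of 0.00159 in edgeR. The call was lost in DESeq2 (adjusted p 0.0133), in a fit shared by 22 libraries of days 0 to 7 (0.0118), with repeat 1 or 3 of vehicle left out (0.0146 and 0.012) and with repeat 1 or 2 of LLY-283 left out (0.0129 and 0.0186), and the fold change was positive each time.

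At day 0 the arms had been alike in range for ACVR1, with 15.9, 16.9 and 17.3 CPM in vehicle and 16.2, 15.8 and 16.0 CPM in LLY-283. The treatment difference at day 5 exceeded that at day 0 by 0.43 ± 0.11 on the log2 scale, with an adjusted p of 0.00412 for the interaction. That call was lost, with adjusted p values from 0.0107 to 0.0187, when any of 8 libraries was left out (repeats 2 and 3 of day 0 in both arms, repeats 1 and 3 of vehicle and repeats 1 and 2 of LLY-283 at day 5), in DESeq2 (0.0281) and in the shared fit (0.0543). Vehicle cells had gone down between day 0 and day 5 by a log2 fold change of -0.24 ± 0.0811, adjusted p 0.0147, and LLY-283 cells had a change of 0.18 ± 0.0785, adjusted p 0.0523, so neither arm passed the test on its own. Without LLY-283 day 5 repeat 3 the change in LLY-283 was called (0.00693), and with library size alone that in vehicle was called (0.00357). In the single libraries of days 1, 2 and 3 the LLY-283 to vehicle ratio was 1.08, 1.02 and 0.975, each with a 95% counting interval that included equality. At day 10 it was 1.25, with an interval from 1.04 to 1.51 that covers counting error only. By label, day 7 gave 13.6 and 16.2 CPM in vehicle and 15.1 and 14.1 CPM in LLY-283, with overlapping arms.

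BMPR1A, or ALK3, is a BMP type I receptor and the most abundant receptor among the members. Its day 5 levels were 205.4, 206 and 206.1 CPM in vehicle and 163.4, 154.3 and 151.8 CPM in LLY-283. The arms were far apart compared with the spread within them, with SDs of 0.379 and 6.11 CPM. BMPR1A had a log2 fold change of -0.37 ± 0.0359 and an adjusted p of 4.1e-09 in edgeR, the smallest among the 10 genes. Pseudogenes of BMPR1A have rows of their own in the table, BMPR1AP1 with 23 and BMPR1AP2 with 45 counts over 24 libraries, against 74616 for BMPR1A.

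The level of BMPR1A moved with the day in both arms. At day 0 it was 179.2, 183.5 and 182 CPM in vehicle and 193.2, 185.4 and 188.5 CPM in LLY-283, so the treated libraries then lay slightly above, with a log2 fold change of 0.05 ± 0.0317 and an adjusted p of 0.896. Between day 0 and day 5, vehicle cells rose by 0.17 ± 0.0354 on the log2 scale (adjusted p 0.000297) and LLY-283 cells fell by 0.26 ± 0.0339 (adjusted p 6.87e-07). The interaction of treatment with day was -0.41 ± 0.0477, adjusted p 3.28e-07. The single libraries of days 1, 2, 3 and 10 were lower than every library of days 0, 5 and 7 of the same arm, with 146.2, 134.1, 149.7 and 136.9 CPM in vehicle and 147, 128, 126.9 and 130.2 CPM in LLY-283. At day 3 the ratio was 0.848, with a counting interval from 0.8 to 0.898, whereas the intervals of days 1, 2 and 10 included equality. At day 7 the labelled arms were close, with 200.4 and 183.2 CPM in vehicle and 186.1 and 194.6 CPM in LLY-283, and each repeat 2 library lay nearer to the repeat 1 library of the other arm than to its own.

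BMPR2, the type II receptor that activates both type I receptors, did not differ by treatment at day 5 within the precision of the test. It measured 66.8, 66.4 and 71.5 CPM in vehicle and 69.0, 65.8 and 64.7 CPM in LLY-283, and the groups overlapped, with a log2 fold change of -0.01 ± 0.046 and an adjusted p of 0.869. Over time BMPR2 rose in both arms, by 0.23 ± 0.0499 in vehicle and 0.17 ± 0.0427 in LLY-283 on the log2 scale from day 0 to day 5, with adjusted p values of 0.000406 and 0.00184. The call in LLY-283 was lost in DESeq2 (0.0229), in the shared fit (0.0363), with repeat 2 of its day 0 left out (0.0185) and with repeat 1 of its day 5 left out (0.0109). BMPR2 shares exon sequence on its strand with ENSG00000289490, which has no row in the table, so reads of that gene cannot be told apart from its own. The LLY-283 library of day 3 had its highest level, 71.8 CPM against 61.0 CPM in vehicle.

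**Figure D2:**
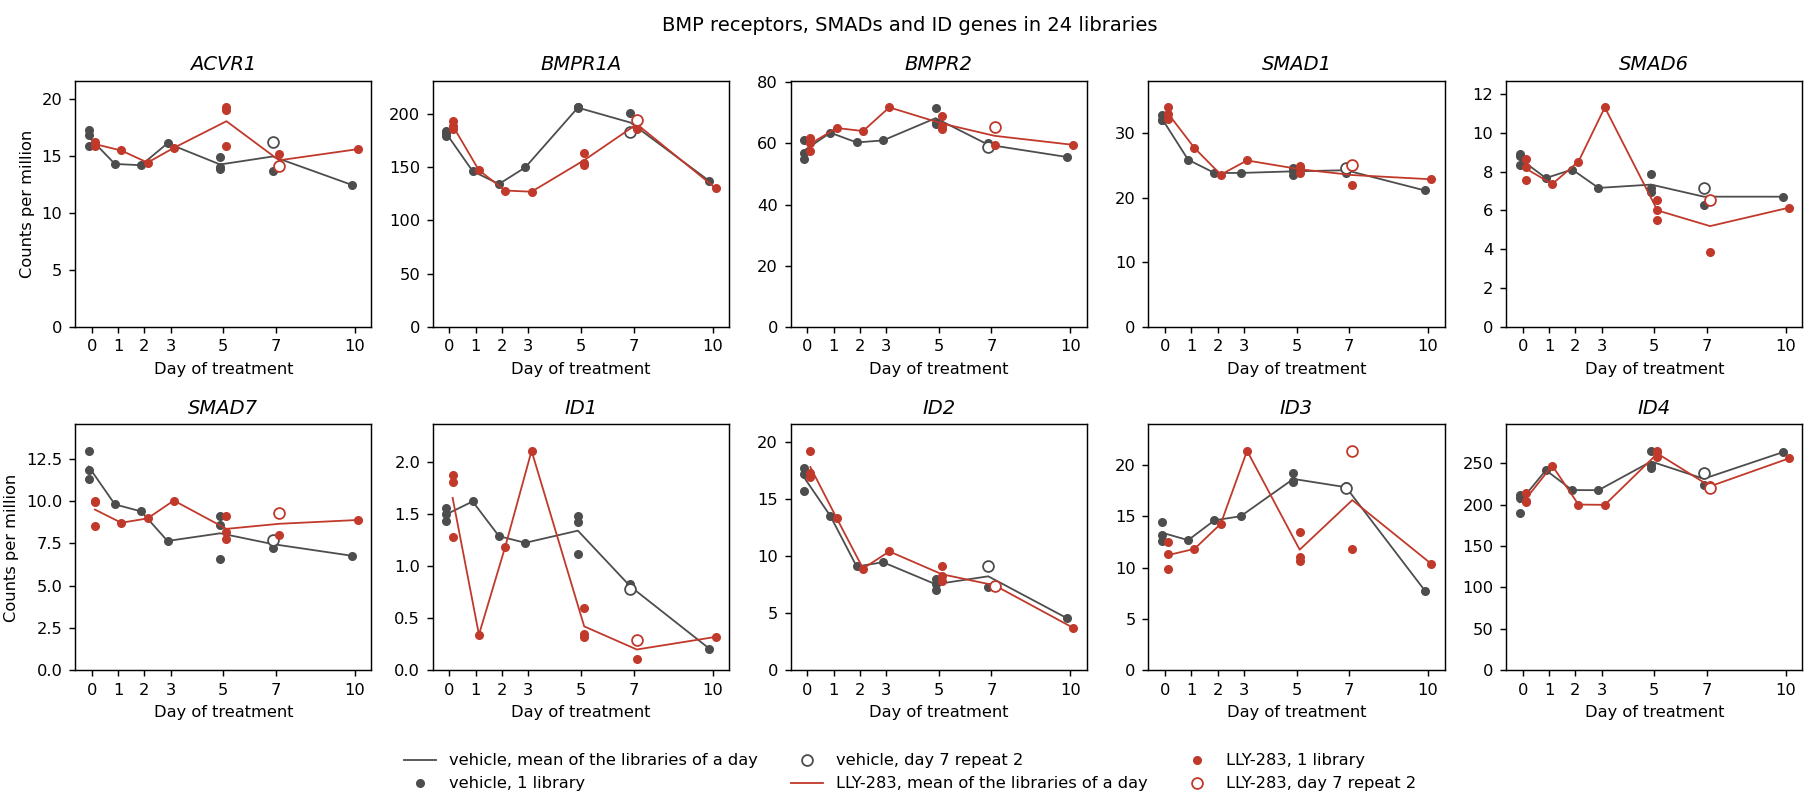
CPM is plotted against the day of treatment for each of the 10 genes, with 1 point per library, lines through the mean of each arm and open circles for the day 7 repeat 2 libraries. Vehicle is grey and LLY-283 red, BMPR1A separates at day 5, ID2 and SMAD1 go down together in both arms, and the LLY-283 library of day 3 is the highest point for ID1, ID3, SMAD6 and BMPR2.

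SMAD1, which carries the signal from these receptors to the nucleus, changed with time, without a detectable treatment difference. At day 5 it measured 24.2, 24.6 and 23.4 CPM in vehicle and 23.7, 24.5 and 24.9 CPM in LLY-283, for a log2 fold change of 0.05 ± 0.0664 and an adjusted p of 0.632. At day 0 it had been 32.0, 32.0 and 32.7 CPM in vehicle and 33.9, 32.1 and 32.8 CPM in LLY-283. The fall from day 0 to day 5 was similar in size in the arms, -0.44 ± 0.0608 in vehicle and -0.42 ± 0.0568 in LLY-283, with adjusted p values of 8.33e-07 and 1.02e-06. Most of it was present at day 1, when the single libraries read 25.8 and 27.7 CPM. The interaction was 0.03 ± 0.0781, adjusted p 0.845. The strand setting of the quantification is not given in the sources used here, and the antisense gene SMAD1-AS1 had 19 counts and SMAD1-AS2 16 counts over 24 libraries, against 11734 for SMAD1.

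SMAD6 and SMAD7 are the inhibitory SMADs, both induced by the pathway they restrain, SMAD7 also by TGF-beta. SMAD6 measured 7.89, 7.16 and 6.94 CPM in vehicle at day 5 and 5.481, 6.522 and 5.998 CPM in LLY-283. The treated libraries all lay lower, but the log2 fold change of -0.26 ± 0.131 had an adjusted p of 0.119. Its change from day 0 to day 5 was -0.42 ± 0.117 in LLY-283 (adjusted p 0.00402) and -0.26 ± 0.113 in vehicle (adjusted p 0.0615), and the difference between these changes was -0.16 ± 0.155, adjusted p 0.513. The call in LLY-283 was lost in DESeq2 (0.0223), in the shared fit (0.0189), with repeat 2 or 3 of its day 0 left out (0.0236 and 0.0171) and with repeat 1 or 3 of its day 5 left out (0.0174 and 0.0125). At day 3 the LLY-283 library had 11.3 CPM, the highest of all 24, against 7.16 CPM in vehicle, a ratio of 1.58 with a counting interval from 1.25 to 2.0. For SMAD6 the intervals of days 1, 2 and 10 included equality.

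SMAD7 measured 9.13, 8.61 and 6.57 CPM in vehicle at day 5 and 8.16, 7.78 and 9.15 CPM in LLY-283, with overlapping groups and an adjusted p of 0.724. At day 0 the groups did not overlap, with 11.83, 11.34 and 12.98 CPM in vehicle and 10.0, 9.94 and 8.56 CPM in LLY-283. That day 0 log2 fold change was -0.36 ± 0.0935, with an unadjusted p of 0.000929 and an adjusted p of 0.375. The summed immediate early genes separated the arms on the same day, although ARRDC3 and KLF6 were listed with earlier results of these data known. Their part in the SMAD7 difference was not tested. In vehicle SMAD7 fell by 0.58 ± 0.112 on the log2 scale to day 5, adjusted p 9.78e-05, and in LLY-283 its change was -0.16 ± 0.107, adjusted p 0.22. The interaction of 0.42 ± 0.157 had an adjusted p of 0.0487, which does not pass 0.01. In the single libraries the LLY-283 to vehicle ratio was 1.31 at day 3, counting interval 1.04 to 1.66, and 1.31 at day 10, interval 1.02 to 1.69. The intervals of days 1 and 2 included equality. Groups that did not overlap at day 0 were found for 3 of the 10 members, SMAD7, ID3 and BMPR1A, against 11.2% of all genes.

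The ID genes code for helix-loop-helix proteins without a DNA-binding part. The stretches before 3 of their starts are shown because ID1 and ID3 were lower at day 5 while ID4 was not called. Each is 240 bases on the gene's strand from RefSeq, build GRCh38.p14, and ends 10 bases before the annotated start. Capitals mark GGAGCC or its reverse complement GGCTCC, 6 letters described in sites of SMAD1 and SMAD5:
ID1, chr20:31605039-31605278, plus strand: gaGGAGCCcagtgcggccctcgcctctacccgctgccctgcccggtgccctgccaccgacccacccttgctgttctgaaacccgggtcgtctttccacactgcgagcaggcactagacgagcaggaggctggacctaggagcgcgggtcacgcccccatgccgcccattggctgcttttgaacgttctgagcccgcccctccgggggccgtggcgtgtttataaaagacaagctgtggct
ID3, chr1:23559512-23559751, minus strand: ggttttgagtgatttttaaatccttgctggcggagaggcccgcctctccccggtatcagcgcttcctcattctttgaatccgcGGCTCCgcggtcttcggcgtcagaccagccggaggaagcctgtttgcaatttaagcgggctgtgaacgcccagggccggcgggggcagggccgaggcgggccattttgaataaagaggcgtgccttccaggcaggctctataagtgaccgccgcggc
ID4, chr6:19837120-19837359, plus strand: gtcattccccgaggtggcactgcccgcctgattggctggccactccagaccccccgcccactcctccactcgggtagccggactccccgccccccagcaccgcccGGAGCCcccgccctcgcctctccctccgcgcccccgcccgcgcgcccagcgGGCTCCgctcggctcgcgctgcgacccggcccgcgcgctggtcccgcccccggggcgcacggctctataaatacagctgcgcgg
GGAGCC occurred 1 time before ID1, 1 time before ID3, 2 times before ID4 and 0 times before ID2, and 29.4% of 35116 RefSeq promoters of the same length held it on either strand. GGCGCC, its palindromic relative, was in none of the 3 windows nor in that of ID2, and 15.5% of promoters held it. The 4 letters GTCT were present before all 4 ID genes, as in 76.2% of promoters. The window before ID2 overlaps annotated exons of ID2 and is not shown, and that before ID1 overlaps an exon of ENSG00000289875. These are matches of letters within 240 bases, sites further from the starts were not searched, and no binding was measured.

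ID1 is the classical immediate target of BMP receptors. At day 5 it measured 1.428, 1.117 and 1.477 CPM in vehicle, from 23, 17 and 20 counts, and 0.350, 0.316 and 0.600 CPM in LLY-283, from 6, 6 and 12 counts. All treated libraries lay lower, and the fitted log2 fold change was -1.61 ± 0.373, adjusted p 0.0011 in edgeR, the largest fall among the members. Without LLY-283 day 5 repeat 2 it was -1.44, with an adjusted p of 0.0129. DESeq2 gave -1.64 with an unadjusted p of 0.00167 and no adjusted p, since it sets genes of low counts aside.

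At day 0 ID1 had been at 1.56, 1.502 and 1.43 CPM in vehicle and 1.28, 1.81 and 1.88 CPM in LLY-283, with an adjusted p of 0.954. The interaction of treatment with day was -1.74 ± 0.424, adjusted p 0.00302, and the call was lost when repeat 3 of day 0 (0.0109) or repeat 2 of day 5 (0.0145) was left out of the LLY-283 arm and in the shared fit (0.0185), while DESeq2 gave it no adjusted p. From day 0 to day 5 the change was -0.18 ± 0.284 in vehicle, adjusted p 0.634, and -1.92 ± 0.342 in LLY-283, adjusted p 4.07e-05. The course between these days was not even. At day 1 the LLY-283 library held 6 counts against 37 in vehicle, a ratio of 0.211 with a 95% counting interval from 0.0728 to 0.505, which compares these libraries and not the conditions. At days 2 and 3 the ratios were 0.922, interval 0.505 to 1.67, and 1.72, interval 0.977 to 3.12, so neither differed from equality beyond counting error. The day 3 LLY-283 library, with 38 counts and 2.11 CPM, was the highest of all 24.

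**Figure D3:**
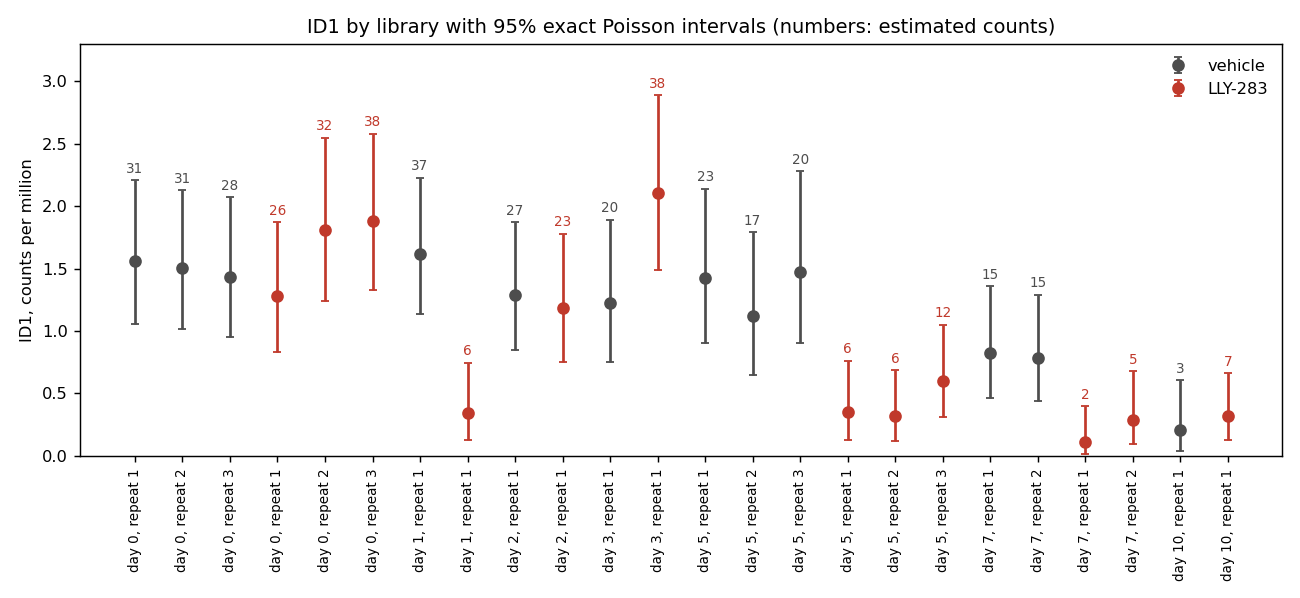
ID1 CPM is plotted for each library, ordered by day, with 95% exact Poisson intervals that cover counting error only and the estimated count above each point. The LLY-283 libraries of days 1, 5 and 7 hold between 2 and 12 counts, the vehicle libraries of the same days between 15 and 37. At days 2 and 3 the LLY-283 libraries hold 23 and 38 counts, against 27 and 20 in vehicle. Both day 10 libraries are low with 3 and 7.

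Late libraries had little ID1 in either arm. At day 7 vehicle had 0.825 and 0.783 CPM and LLY-283 0.110 and 0.290 CPM, from 15, 15, 2 and 5 counts. Here the groups did not overlap, and the LLY-283 repeat 2 library stayed on the low side although over the day 5 genes it lay near vehicle. The log2 fold change was -1.98 with an unadjusted p of 0.0126 and an adjusted p of 0.999. At day 10 the counts were 3 in vehicle and 7 in LLY-283, a ratio of 1.55 with an interval from 0.353 to 9.27, which says little about direction.

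ID3 was lower in LLY-283 at day 5 by another pattern. It measured 18.4, 18.3 and 19.2 CPM in vehicle and 13.5, 10.7 and 11.05 CPM in LLY-283, with no overlap, for a log2 fold change of -0.65 ± 0.0903 and an adjusted p of 1.96e-06. In vehicle ID3 rose from 14.4, 12.6 and 13.2 CPM at day 0, by 0.46 ± 0.0822 on the log2 scale, adjusted p 3.32e-05 (0.0284 in the shared fit). In LLY-283 it had been 11.3, 12.5 and 9.84 CPM at day 0 and changed by 0.08 ± 0.103, adjusted p 0.53. ID3 had been lower in LLY-283 already at day 0, with a log2 fold change of -0.27 ± 0.093, an unadjusted p of 0.00728 and an adjusted p of 0.789, and the interaction of -0.37 ± 0.133 had an adjusted p of 0.0434, which does not pass 0.01 (0.0084 without LLY-283 day 5 repeat 1). The day 5 difference was therefore larger than that of day 0 in size, without a called difference between the days.

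The other ID3 libraries did not follow the day 5 direction throughout. At days 1 and 2 the LLY-283 to vehicle ratio was 0.933 and 0.977, with counting intervals that included equality. At day 3, LLY-283 had 21.4 CPM against 14.99 in vehicle, a ratio of 1.42 with a counting interval from 1.21 to 1.68. At day 10, LLY-283 had 10.4 CPM against 7.74 in vehicle, a ratio of 1.34 with an interval from 1.06 to 1.69. At day 7, vehicle had 17.9 and 17.7 CPM and LLY-283 had 11.8 CPM in repeat 1 and 21.3 CPM in repeat 2. Without the 2 repeat 2 libraries, day 7 is 1 library against 1.

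ID2 and ID4 did not pass the test for treatment at day 5. ID2, which binds the retinoblastoma protein as well as E proteins, measured 8.01, 7.56 and 7.09 CPM in vehicle and 9.16, 7.84 and 8.30 CPM in LLY-283. Its log2 fold change was 0.18 ± 0.118, adjusted p 0.254. ID2 went down with time in both arms, from 17.3, 15.75 and 17.8 CPM in vehicle and 17.3, 19.3 and 17.0 CPM in LLY-283 at day 0 to 4.56 and 3.71 CPM at day 10. To day 5 it fell by 1.18 ± 0.0957 in vehicle and by 1.06 ± 0.0886 in LLY-283 on the log2 scale, with adjusted p values of 4.01e-11 and 2.92e-10. The interaction was 0.12 ± 0.13, adjusted p 0.56. Its antisense gene ID2-AS1 had 44 counts over 24 libraries against 4835 for ID2.

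ID4, the ID gene with the highest level and one that is linked to neural precursors, measured 248.2, 243.9 and 264.2 CPM in vehicle and 263, 265 and 257.2 CPM in LLY-283 at day 5. The groups overlapped, and the log2 fold change was 0.08 ± 0.0367, adjusted p 0.0908. In the single libraries of days 2 and 3 the LLY-283 to vehicle ratio was 0.92 and 0.919, with counting intervals from 0.881 to 0.96 and from 0.877 to 0.962. The intervals of days 1 and 10 included equality. ID4 rose in both arms from day 0 to day 5, by 0.30 ± 0.0407 in vehicle and 0.36 ± 0.0325 in LLY-283, with adjusted p values of 6.72e-07 and 1.44e-09. ID2 and ID4 thus went in opposite directions with time in each arm.

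Over time within an arm, 7 of 10 members were called in vehicle and 7 of 10 in LLY-283 between day 0 and day 5, against 38.9% of 17106 and 42.4% of 17341 genes. The groups of the days did not overlap for 9 members in vehicle and 7 in LLY-283, against 57.2% and 57.7% of genes. SMAD1 and ID2 fell, and BMPR2 and ID4 rose, in both arms. BMPR1A was called in both arms in opposite directions. SMAD7 and ID3 were called in vehicle, and SMAD6 and ID1 in LLY-283. The test of the difference between arms called 3 of 10 members, ACVR1, BMPR1A and ID1, against 14.9% of 18369 genes.

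**Figure D4:**
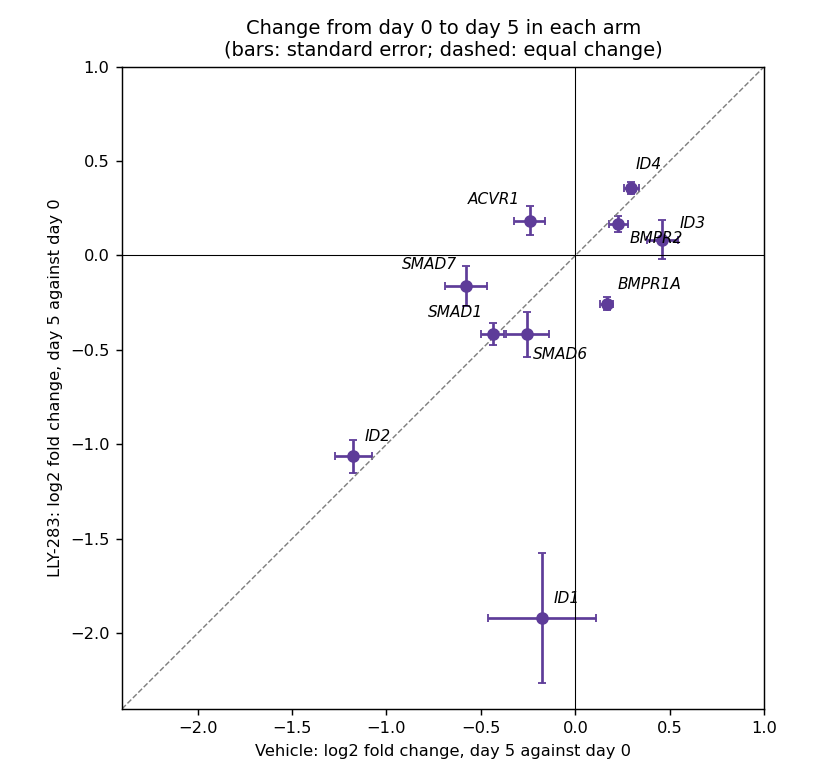
The log2 fold change from day 0 to day 5 in LLY-283 (vertical) is plotted against that in vehicle (horizontal), with 1 point per gene, bars for standard errors and a dashed line for equal change. ID2, SMAD1, BMPR2 and ID4 lie near the dashed line, ID1 at -0.18 and -1.92 and BMPR1A at 0.17 and -0.26 lie below it, and ACVR1 at -0.24 and 0.18 lies above it.

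The test of treatment by day over the 22 libraries of days 0 to 7 called none of the 10 members, against 0.0289% of 20756 genes. BMPR1A had an adjusted p of 0.0204 and ID1 of 0.0613, and 5 of 10 had an unadjusted p under 0.05, against 15.3% of genes. Without both day 7 repeat 2 libraries it called 4 members, BMPR1A (adjusted p 9.79e-06), ID3 (0.000358), ID1 (0.00105) and SMAD6 (0.00871), against 9.66% of 20714 genes. ACVR1 was not called (0.146). BMPR1A was also called without any 1 of the 4 day 7 libraries (adjusted p 0.000603 to 0.00673), and ID1 and ID3 without either LLY-283 day 7 library (0.00578 and 0.00454 for ID1, 0.00111 and 0.00452 for ID3, repeats 1 and 2 in turn). Day 7 on its own called no member and 0% of 16826 genes in edgeR, with 1 member and 1.40% of genes (236) at an unadjusted p under 0.05 and 3 genes called by DESeq2. With TMM factors of the day 7 libraries alone, the groups did not overlap for 3 of 10 members, ID1, SMAD7 and BMPR2, against 25.9% of genes. With the factors of all 24 libraries BMPR2 did overlap, at 60.17 and 58.91 CPM in vehicle and 59.6 and 65.32 CPM in LLY-283. The test over days 0 to 7 gives no direction, and days 1, 2 and 3 enter it with 1 library an arm. Once both repeat 2 libraries are left out, day 7 does as well, so a call can rest on single libraries. At day 3 the LLY-283 to vehicle ratio was 1.58 for SMAD6, 1.42 for ID3 and 1.72 for ID1, against their day 5 direction. For BMPR1A it was 0.848, in its day 5 direction.

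Around these 10 genes, a list of 77 further genes of the pathway was read by role, of which 49 passed the filter on low counts at day 5. LLY-283 raised 9 and lowered 7 of them, 32.7% of the 49 against 26.1% of all genes, with a median log2 fold change of -0.02 against 0.02 over all genes. The count was 10 without vehicle day 5 repeat 2 and 6 when all 22 libraries shared a fit, in which BMP7 (0.206), SOSTDC1 (0.0191), BAMBI (0.0373), TGFBR1 (0.0398), SMAD5 (0.0102), TOB1 (0.0129), TCF4 (0.0421) and TCF3 (0.0197) were not called. The 2 genes of smallest p in each role are described.

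Outside the cell, 4 of 14 ligands were tested. BMP7, a BMP ligand, rose from 64.3 ± 2.92 to 74.3 ± 1.9 CPM (SD, n = 3), a log2 fold change of 0.23, adjusted p 0.000188, and BMP8B at 77.7 and 81.4 CPM did not pass (0.124). Among 7 tested antagonists 2 were higher. CHRDL1, a chordin-like protein that binds BMPs, rose by 0.51 ± 0.0568, and SOSTDC1, a BMP antagonist, rose by 0.73 ± 0.206 from 2.18 to 3.56 CPM, with adjusted p values of 1.2e-07 and 0.00636. The SOSTDC1 call was lost in DESeq2 (0.0312) and when repeat 2 or 3 of vehicle (0.0382 and 0.0204) or repeat 1 or 3 of LLY-283 (0.0347 and 0.0182) was left out.

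At the membrane, 5 of 6 tested co-receptors and decoys were called, 3 higher and 2 lower, against 26.1% of all genes. The roles were not tested as sets. RGMA, a BMP co-receptor, rose by 0.87 ± 0.12, from 5.53, 6.57 and 5.61 CPM to 11.3, 9.84 and 10.7 CPM, adjusted p 1.54e-06. BAMBI, a decoy receptor without a kinase that dampens signalling, rose by 0.39 ± 0.0571, adjusted p 3.92e-06. Of the 6 other receptors tested, TGFBR1, the TGF-beta type I receptor, fell by 0.19 ± 0.0537, adjusted p 0.0073, a call lost with library size alone (0.0244), in DESeq2 (0.0264) and when repeat 2 or 3 was left out of vehicle (0.0187 and 0.0326) or of LLY-283 (0.0848 and 0.0206). ACVR2B, a type II receptor for activins, had a log2 fold change of -0.15 and did not pass (0.0485).

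Inside the cell, SMAD5, which acts beside SMAD1, fell by 0.19 ± 0.0366, from 185.2 to 159 CPM, adjusted p 0.000107, the only call among 5 other SMADs. SMAD4 had a log2 fold change of -0.07, adjusted p 0.249. Of 12 intracellular regulators tested 1 was higher and 2 lower. PRMT1, an arginine methyltransferase known to act on SMAD6, fell by 0.25 ± 0.035, from 405 to 334.3 CPM, adjusted p 1.7e-06. TOB1, an antiproliferative protein that restrains BMP SMADs, rose by 0.30 ± 0.061, adjusted p 0.000312.

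Of the other BMP target genes, HEY1, a transcriptional repressor induced by BMP and Notch, rose by 0.54 ± 0.0662, from 29.3, 27.3 and 28.2 CPM to 44.8, 36.3 and 40.7 CPM, adjusted p 2.65e-07. It was the only call among 6 targets tested of 11 listed, and MSX1, a homeobox gene, had a log2 fold change of -0.26 that did not pass (0.0187). The E proteins were split, with TCF4 higher by 0.19 ± 0.0358 and TCF3 at -0.14 ± 0.0344, adjusted p values of 0.00015 and 0.00164. The TCF3 call was lost when repeat 2 was left out of vehicle (0.0133) or of LLY-283 (0.0185), and the TCF4 call when it was left out of vehicle (0.0106).

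**Figure D5:**
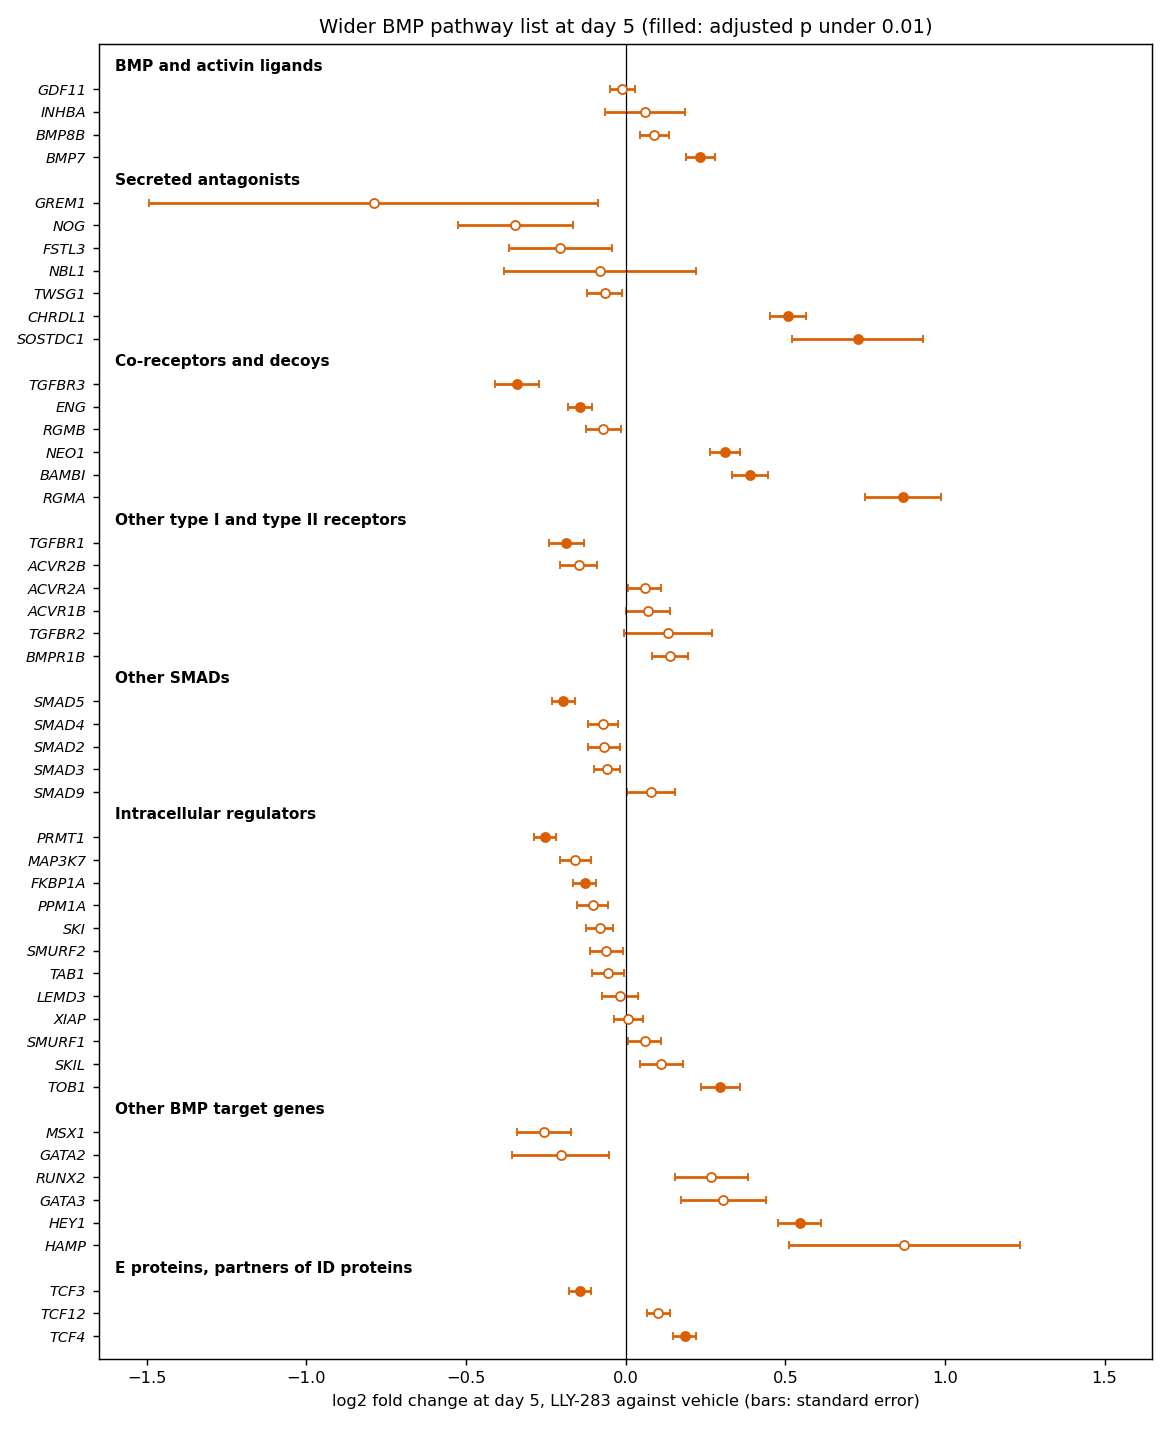
The log2 fold change of LLY-283 against vehicle at day 5 is plotted for the 49 tested genes of the wider list, grouped by role, with bars for standard errors (3 libraries per group) and filled points for an adjusted p under 0.01. Filled points lie on both sides of zero, 9 above and 7 below, with RGMA at 0.87 the highest of them and TGFBR3 at -0.34 the lowest.

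Across the 24 libraries, members of the same family did not form a single pattern. As a description over libraries that share days and depth, log2 CPM of SMAD1 and ID2 had a Pearson correlation of 0.897, SMAD6 and ID1 of 0.805, and ID1 and ID3 of 0.349. ACVR1 had a correlation of -0.003 with ID1 and -0.168 with ID3. Of 20875 genes, those most like ACVR1 were SULF2 (0.809), CCND1 (0.787) and SNHG30 (0.777). For ID1 they were SIRPA (0.837), NES (0.814) and SMAD6 (0.805), and for ID3 SFPQ (0.828), MCL1 (0.826) and CDC27 (0.804). ID2 was closest to TMEM43 (0.955), SERPINB8 (0.95) and PRAG1 (0.941), and ID4 to TSC22D4 (0.861), PPP2R5A (0.86) and MARCHF9 (0.858).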

How the data were processed

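Polyadenylated RNA of HSJD-DIPG-007 cells was sequenced as paired 41 bp reads. The authors quantified the reads on hg38 with kallisto, whose version is not given in the sources used here, and the deposited values are estimated counts, whole numbers per gene without normalization. Totals lay between 13835205 and 23190369 per library. Differences were tested on these counts in R 4.3.3 with edgeR 4.0.16: TMM factors, its low-count filter by group, the robust quasi-likelihood test and Benjamini-Hochberg adjustment over all genes tested, with calls at an adjusted p under 0.01. Days 0, 5 and 7 were each tested in their own libraries, and day 10 entered no test. Alternatives were DESeq2 1.42.0, its size factors, library size alone, no filter, a block for the repeat number, an adjusted p under 0.05, a shared fit of 22 libraries and leaving out libraries, and those for the wider list were added after its values were seen. CPM values used the TMM factors of all 24 libraries. Counts of genes whose groups did not overlap used log2 CPM with the TMM factors of the compared libraries alone, so they can differ from the CPM values given. Ratios of single libraries have exact binomial and ID1 levels exact Poisson 95% intervals (scipy 1.17.1), which cover counting error only. Tests were checked on simulated data, with changes placed only in genes of higher counts than those of ID1. That check does not cover ID1, nor changes as small as those of ACVR1 and BMPR1A at day 5. The members and lists were chosen with earlier results of these data known. The text names all 10 members, the 2 genes of smallest day 5 p in each role of the wider list and the 3 genes most correlated with ACVR1 and each ID gene. Protein sequences were not used here.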

Additional observations from a re-analysis of the deposited data

Results flagged for a closer look

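The difference between the arms at day 5 departed from that at day 0 for 3 of the 10 genes, against 14.9% of 18369 genes. These calls come from the interaction test in edgeR at an adjusted p under 0.01. Of these members only BMPR1A was also called in the shared fit and in DESeq2, which gave ID1 no adjusted p. The day 5 difference less the day 0 baseline difference was -1.74 for ID1, 0.43 for ACVR1 and -0.41 for BMPR1A on the log2 scale. BMPR1A changed sides, from a log2 fold change of 0.05 at day 0 to -0.37 at day 5. The test for a library far from the others was not run, since no group had more than 3 libraries.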

How the results depend on the processing

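Most values kept their direction and their side of the threshold under the other settings. Changed calls of single genes are given beside their values above or named here. At day 5, DESeq2 called 3300 genes, against 4304 of 16491 in edgeR, and 2 of the 9 members with an adjusted p (ID1 has none there). A shared fit of 22 libraries called 2042 genes. Leaving out each library in turn gave 3193 to 4423 genes and 2 to 4 members, and log2 fold changes from -0.042 to 0.017 for BMPR2 and from -0.062 to 0.15 for SMAD7. BMPR2 was at 0.017 with library size alone. At day 0 the count of genes was 8 at an adjusted p under 0.05, 56 with no filter, 6 with the replicate block, 0 in the shared fit and 0 to 17 leaving out each library, with 0 members called throughout, and ID4 ranged from -0.022 to 0.042. At day 7, DESeq2 called 3 genes, no filter 27 and leaving out a library 7 to 32, with 0 members. In the same order of leaving out, day 7 log2 fold changes ranged from -0.14 to 0.10 for ACVR1, -0.072 to 0.071 for BMPR1A, -0.13 to 0.044 for SMAD1, -0.28 to 0.031 for ID2 and -0.59 to 0.26 for ID3. BMPR1A at day 7 was at 0.0012 with DESeq2 or with its size factors and 0.024 with library size alone, and ACVR1 at 0.0052 with library size alone. From day 0 to day 5, ID3 in LLY-283 ranged from -0.023 to 0.16 leaving out each library.

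The interaction of treatment with days 0 and 5 called 4452 genes and 5 members at an adjusted p under 0.05. In the shared fit it called 51 genes and 1 member (BMPR1A). DESeq2 called 2405 genes and 1 (BMPR1A) of the 9 members with an adjusted p. Leaving out each library gave 2126 to 3000 genes and 1 to 3 members. The interaction value for SMAD1 was -0.013 in the shared fit and ranged from -0.011 to 0.047 leaving out each library. The test over days 0 to 7 called 30 genes and 1 member at an adjusted p under 0.05, 249 genes and 1 member (BMPR1A) in DESeq2, 10 genes with the size factors of DESeq2, 11 with library size alone, 1217 genes and 3 members (BMPR1A, ID1 and ID3) with no filter, 1 gene with the replicate block, 2002 genes and 4 members without both day 7 repeat 2 libraries, and 0 to 894 genes and 0 to 3 members leaving out each library. The cause of these changes was not tested. In DESeq2 only 3 of the 10 members had an adjusted p in the test over days 0 to 7. ID1 and ID3 were not among them. Deviations of libraries with the same repeat number correlated between -0.0764 and 0.0531, so no shared effect of the repeat number was seen. These values cannot tell whether libraries of the same number were prepared together. The fit with the replicate block called 4401 genes and 4 members at day 5. With between 2 and 38 counts a library, depth limits what ID1 can show.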

Other observations

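The LLY-283 library of day 3 held the highest level of 4 of the 10 genes among all 24 libraries, ID1 at 2.11 CPM, ID3 at 21.4 CPM, SMAD6 at 11.3 CPM and BMPR2 at 71.8 CPM. The ID3 level was almost equal to the 21.33 CPM of LLY-283 day 7 repeat 2. The BMPR2 level was close to the 71.5 CPM of vehicle day 5 repeat 3, and the ID1 ratio at day 3 had a counting interval from 0.977 to 3.12. The same library held the lowest BMPR1A level of all 24, 126.9 CPM. The share of all genes with their highest level in it was not counted. On the scale of the day 5 treatment difference this library lay at 76.2%, on the side of the LLY-283 libraries of day 5, in which ID1, ID3 and SMAD6 lay below vehicle. It is a single library, and no test was run on it. The vehicle library of day 10 lay at 60.6% on that scale, which also moves with the day. It had the lowest ID3 level of all libraries, 7.74 CPM, and 3 counts of ID1.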
